A study of Homo sapiens with 12 samples.

Results

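The genes described here are 45 components of autophagy, chosen by name from the 58721 genes of the deposited tables and grouped by the step they serve. The groups hold 5 genes of initiation, 7 of the lipid kinase complexes, 8 of phagophore growth, 10 of conjugation, 6 ATG8 homologs, 5 selective receptors and 4 genes of autophagosome transport and fusion. RNA-seq was performed on Tu8902 and MiaPaCa2, human pancreatic cancer cell lines that the paper calls Pa-Tu-8902 and MIA PaCa-2, both carrying a doxycycline (dox)-inducible short hairpin RNA against GOT1, the cytosolic aspartate aminotransferase. The titles of the samples give the line of each library. One source conflicts with them, as a supplementary table of the paper, seen here only in its first rows, lists under Tu8902 column names the per-library counts that were deposited as MiaPaCa2. The averaged counts in the same rows of that table mostly lie nearer to those deposited as Tu8902. The titles were followed, and if they were exchanged, the lines of all values below would be exchanged too. Each line had 3 untreated libraries (mnsdox) and 3 libraries of cells given dox for 5 days (plsdox), 12 in all, and the question was which transcripts change upon GOT1 knockdown. The dox concentration is 1 µM/mL in the labels and 1 µg/mL in the methods of the paper. Untreated cells carry the same construct, in the Tet-pLKO-puro vector, as stable drug-selected lines. No library came from dox-treated cells without the hairpin, so a response to dox itself and one to the loss of GOT1 cannot be told apart, and which hairpin sequence was used is not given in the sources used here. Nothing in the labels says whether the 3 libraries of a group came from separate cultures, so the p-values measure the spread between these libraries only.

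Autophagy encloses cytoplasm in a double-membrane autophagosome that fuses with the lysosome. The ULK1 kinase complex starts the process, the class III phosphatidylinositol 3-kinase marks the growing phagophore with a phospholipid that WIPI proteins read, and lipid is then delivered by ATG2 and ATG9 proteins. Conjugation enzymes attach small ubiquitin-like ATG8 proteins (the LC3 and GABARAP families) to the membrane, where receptors bind them through short motifs while holding their cargo. In pancreatic cancer cells autophagy is known to be active at a high level and to supply nutrients from the lysosome.

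The ATG8 homologs are cut by ATG4 proteases behind a glycine near their end, and that glycine is then joined to the lipid. The last 30 bases of each coding sequence are shown because they hold this codon, in capitals, with the codons ATG4 removes and the stop codon after it. They were read from the MANE Select transcript of each gene in GENCODE release 44 (GRCh38).
MAP1LC3A: tacgcctcccaggaaaccttcGGCttctga
MAP1LC3B: gagacgttcGGGatgaaattgtcagtgtaa
MAP1LC3B2: gagacgttcGGGatgaaattgtcagtgtaa
GABARAP: tacagtgacgaaagtgtctacGGTctgtga
GABARAPL1: tacagtgatgagagtgtctatGGGaaatga
GABARAPL2: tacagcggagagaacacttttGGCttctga
MAP1LC3B and MAP1LC3B2 are the same over these bases, and 376 of the 378 bases of their coding sequences are identical (99.47%). The division of counts between them is therefore uncertain, since reads from the shared bases cannot be assigned to 1 gene. A library held 1337 to 4340 counts of MAP1LC3B and 2.14 to 15.0 of MAP1LC3B2. Bases outside the coding sequences were not compared. GABARAPL1, the homolog with the steepest rise below, shares 76.84% of its aligned coding bases with GABARAP and 62.15% with GABARAPL2.

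The libraries held 26226537 to 43406137 counts, at which a count of 0 allows up to 3 counts. GOT1 held 4076, 3956 and 4519 normalized counts in the untreated Tu8902 libraries and 192, 165 and 146 with dox, a log2 fold change of -4.64 (standard error 0.09, edgeR adjusted p = 1.51e-09). In MiaPaCa2 it held 2075, 2341 and 2178 untreated and 69.3, 74.6 and 95.4 with dox, a log2 fold change of -4.76 (standard error 0.11, edgeR adjusted p = 1.06e-09), so that GOT1 was far lower in each of the 6 dox libraries. A normalized count is a count scaled to the mean effective library size within a line, and p-values come from the quasi-likelihood test of edgeR, adjusted by Benjamini-Hochberg over all tested genes. Of 5 epithelial markers, KRT8, KRT18 and KRT19 had means of 130.1 to 3789 TPM (a level corrected for gene length and depth) in the 4 groups, while EPCAM and CDH1 had a mean of at most 0.23 TPM in MiaPaCa2. KRT19 fell in MiaPaCa2, from a mean of 397 to 130.1 TPM, and CDH1 rose in Tu8902, from 65.3 to 130.1 TPM. Of 12 markers of fibroblasts, leukocytes and endothelium, 9 had means of at most 0.653 TPM in every group, the others being COL1A1, COL1A2 and CD68. CD68, at means of 3.50 to 8.77 TPM, fell in Tu8902 with a log2 fold change of -0.71 (edgeR adjusted p = 0.00391), and VWF rose there at 2.00 (edgeR adjusted p = 0.000142). The 5 fibroblast markers summed to 192.2 to 248.4 TPM untreated and 340.4 to 398.3 TPM with dox in MiaPaCa2, nearly all COL1A2, and to 3.82 to 6.38 and 18.0 to 21.7 TPM in Tu8902. In Tu8902, 2 of them were tested, COL1A1 and PDGFRB. Both rose at an edgeR adjusted p below 0.01, with log2 fold changes of 1.73 to 1.87. COL1A1 held 399, 461 and 353 normalized counts there untreated and 1482, 1476 and 1483 with dox. In MiaPaCa2, 1 of 2 tested rose at that adjusted p. The part of these markers in the results was not tested. Fewer cells of a type and less RNA per cell cannot be told apart in such bulk libraries. Mitochondrially encoded genes took 0.714% to 0.934% of the counts of untreated and 0.874% to 1.61% of dox-treated Tu8902 libraries. With those genes left out, a choice made after seeing the data, 6 of the 45 genes were still called in each line.

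Of the 45 genes, 44 had enough counts to be tested in Tu8902 and 45 in MiaPaCa2, and all 44 and 45 are counted below. A gene was called at an adjusted p below 0.01 with a change of at least 1.5-fold. In Tu8902, 5 genes rose (ULK1, PIK3C3, WIPI1, GABARAPL1 and FYCO1) and 1 fell (ATG5), where 9.22% of all 14949 tested genes were called higher and 7.12% lower. In MiaPaCa2, 5 rose (ULK1, RUBCN, MAP1LC3A, GABARAPL1 and SQSTM1) and ATG5 fell, where 4.36% of 14589 tested genes were called higher and 7.64% lower. ULK1, GABARAPL1 and ATG5 were thus called in both lines, in the same direction. The share of the autophagy genes called in either direction was 13.6% in Tu8902, beside 16.3% of all tested genes, and 13.3% in MiaPaCa2, beside 12%. Where values of both lines stand together below, that of Tu8902 comes first.

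Most changes were smaller than 1.5-fold. The median log2 fold change of the autophagy genes was 0.15 in Tu8902, with 30 of 44 above 0, and 0.09 in MiaPaCa2, with 33 of 45 above 0. The medians of all tested genes were 0.0014 and -0.0089, and 50.2% and 49.1% of them were above 0. With no limit on fold change, 17 of 44 genes rose and 4 fell in Tu8902 (19% and 19.1% of all tested genes), and 14 of 45 rose and 5 fell in MiaPaCa2 (12.6% and 14.7%). The 3 dox libraries were all above the 3 untreated ones for 23 genes in Tu8902 and 20 in MiaPaCa2, and all below for 6 genes in each line. Such groups without overlap were found for 29% of tested genes in the higher and 29.5% in the lower direction in Tu8902, and for 25.9% and 27% in MiaPaCa2. The MiaPaCa2 median was 0.05 without untreated replicate 3, and 0.19 when limma was run on log2(TPM + 1).

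**Figure D1:**
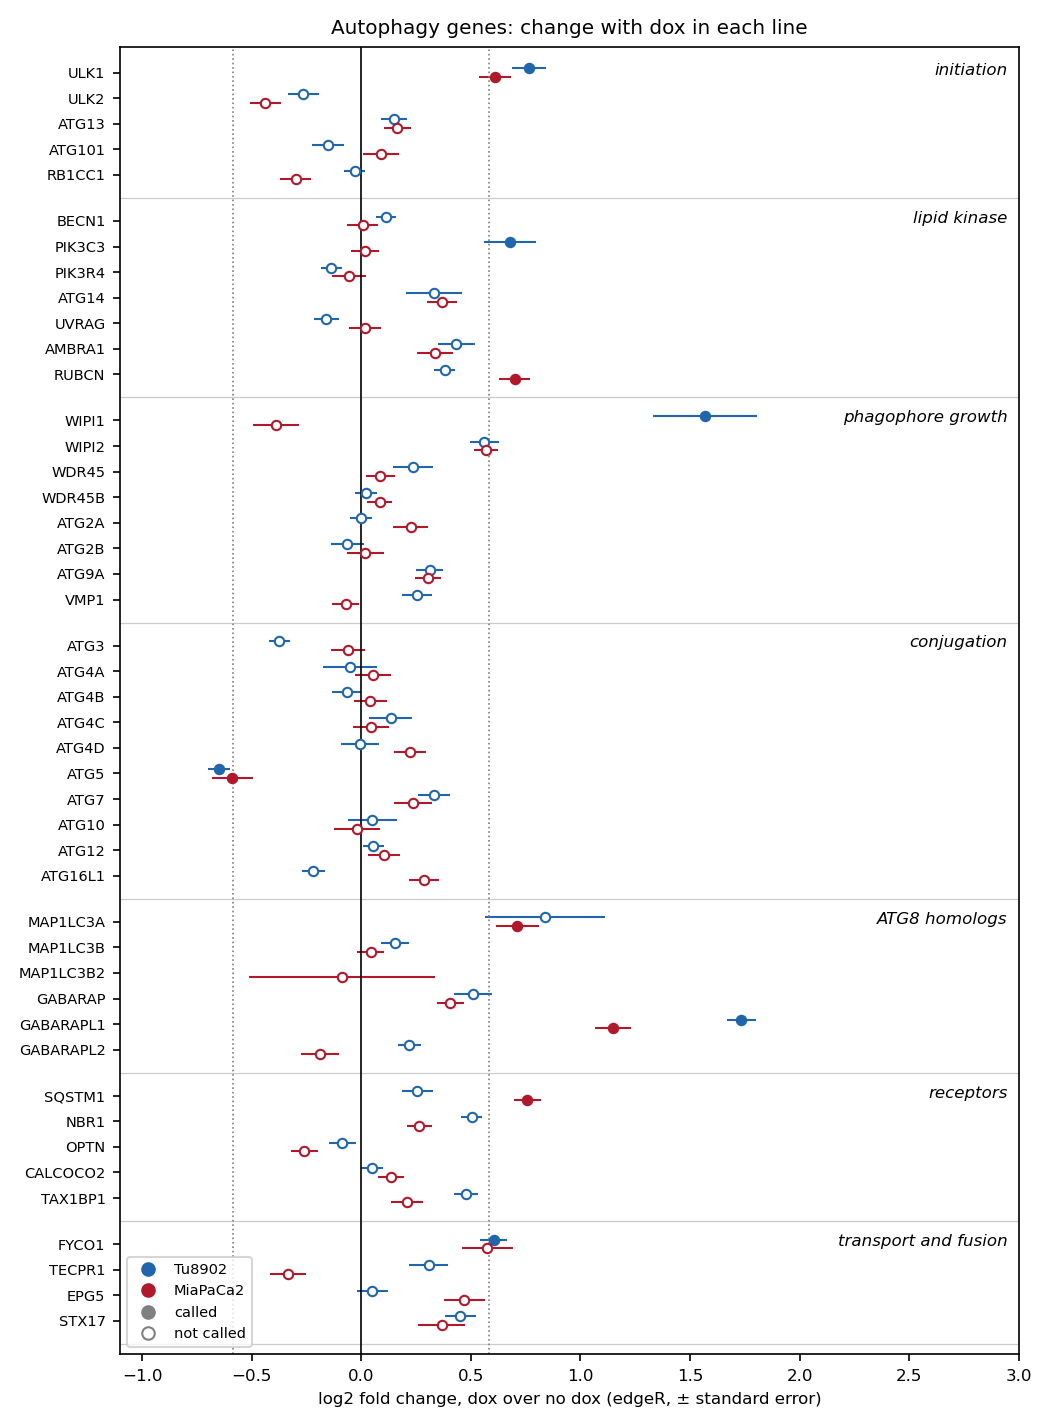
Change of each of the 45 genes with dox, grouped by step, with the log2 fold change on the horizontal axis and bars for its standard error. Filled points are called, open points are not, and dotted lines mark 1.5-fold. GABARAPL1 lies to the right in both lines at 1.74 and 1.15, ATG5 to the left at -0.65 and -0.59, and WIPI1 on opposite sides at 1.57 and -0.39. MAP1LC3B2 has no Tu8902 point because it was not tested there.

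Among the 5 initiation genes, ULK1 rose in both lines and its paralog ULK2 was not called. ULK1, the protein kinase that starts autophagosome formation, lies on chromosome 12 (GRCh38, 131894622 to 131923150, plus strand). It held 465, 503 and 434 normalized counts in untreated Tu8902 and 819, 749.6 and 822 with dox, every dox library above every untreated one, at a log2 fold change of 0.77 (standard error 0.08, edgeR adjusted p = 1.77e-05). In MiaPaCa2 it held 1163, 1148 and 1316 untreated and 1924, 1837 and 1773 with dox, again without overlap, at a log2 fold change of 0.61 (standard error 0.07, edgeR adjusted p = 5.59e-05). This call lies near the limit on fold change and was lost without untreated replicate 1, untreated replicate 2 or dox replicate 1, at 0.57 to 0.58. It was also lost on the TPM scale at 0.62, where the fold change passed its limit but the adjusted p of limma did not.

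ULK2 held 582, 595 and 605 normalized counts in untreated Tu8902 and 509, 485 and 491 with dox, and in MiaPaCa2 1497, 1328 and 1423 untreated and 1029, 1092 and 1018 with dox. Its dox libraries were all lower, but the log2 fold changes of -0.26 (edgeR adjusted p = 0.00849) and -0.44 (edgeR adjusted p = 0.000478) were below 1.5-fold. The scaffold subunits ATG13, ATG101 and RB1CC1 had log2 fold changes from -0.30 to 0.16 over both lines and none was called. ULK1 was no abundant transcript even after dox, at 8.55 ± 0.851 TPM in Tu8902 and 20.4 ± 0.906 TPM in MiaPaCa2 (mean ± SD, n = 3), beside 119 ± 7.5 and 55.5 ± 0.763 TPM for ATG101.

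In the lipid kinase group, PIK3C3 rose in Tu8902 and RUBCN in MiaPaCa2. PIK3C3 (VPS34), the catalytic subunit that makes phosphatidylinositol 3-phosphate, lies on chromosome 18 (GRCh38, 41955234 to 42087830, plus strand). It held 204, 179 and 243 normalized counts in untreated Tu8902 and 338, 329.8 and 332 with dox, a log2 fold change of 0.68 (standard error 0.12, edgeR adjusted p = 0.000675). Without untreated replicate 2, the lowest library, the change was 0.57 and no longer called. In MiaPaCa2, PIK3C3 held 1359, 1257 and 1297 normalized counts untreated and 1355, 1268 and 1339 with dox, groups that overlapped, at a log2 fold change of 0.02 (standard error 0.06, edgeR adjusted p = 0.845). RUBCN encodes Rubicon, a subunit that restrains the kinase and the fusion of autophagosomes. It held 1356, 1215 and 1394 normalized counts in untreated MiaPaCa2 and 2099, 2273 and 2071 with dox, a log2 fold change of 0.70 (standard error 0.07, edgeR adjusted p = 2.06e-05). In Tu8902 the groups were also apart, at 1582, 1642 and 1562 untreated and 2085, 2127 and 2016 with dox, but the log2 fold change of 0.38 (edgeR adjusted p = 9.27e-05) was below 1.5-fold. The MiaPaCa2 call was lost with effective gene lengths as offsets (0.54) and on the TPM scale (0.58). A gene of release 44 on the opposite strand covers 53.84% of the exon bases of RUBCN, and its counts were not analysed here. FYTTD1, also opposite, shares 118 exon bases and had a mean of 3158 counts beside 1791 for RUBCN. AMBRA1, which binds Beclin 1, had log2 fold changes of 0.43 (edgeR adjusted p = 0.00158) and 0.34 (edgeR adjusted p = 0.00629), and ATG14, the subunit that directs the kinase to the phagophore, of 0.33 (edgeR adjusted p = 0.0503) and 0.37 (edgeR adjusted p = 0.00145). BECN1, PIK3R4 and UVRAG, the remaining subunits, lay between -0.16 and 0.11 in both lines.

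Phagophore growth held the largest difference between the lines, in WIPI1, a reader of phosphatidylinositol 3-phosphate on chromosome 17 (GRCh38, 68420948 to 68457513, minus strand). WIPI1 held 31.6, 22 and 25.9 normalized counts in untreated Tu8902 and 89.2, 84.4 and 60.3 with dox, a log2 fold change of 1.57 (standard error 0.24, edgeR adjusted p = 0.00028). In MiaPaCa2 it held 234, 235 and 244 untreated and 190.3, 168 and 186 with dox, each dox library lower, at a log2 fold change of -0.39 (standard error 0.11, edgeR adjusted p = 0.0116) that was not called. The groups overlapped in neither line. On the TPM scale, with 1 added before the logarithm, the Tu8902 change was 0.72 and still called. ARSG, on the opposite strand, shares 829 exon bases with WIPI1 (24.36% of its exon bases) and had a mean of 40.4 counts beside 132.5 for WIPI1. The methods of the paper give default parameters for this step, which is read here as RSEM without its strand option. On that reading, reads of both genes cannot be told apart where their exons overlap. The part of such reads in the result was not tested.

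WIPI2, the WIPI protein that recruits ATG16L1, lay just under the limit on fold change in both lines. It held 1843, 1955 and 2158 normalized counts in untreated Tu8902 and 2781, 3088 and 2916 with dox, at 0.56 (edgeR adjusted p = 4.83e-05), and in MiaPaCa2 3696, 3765 and 3663 untreated and 5525, 5534 and 5429 with dox, at 0.57 (edgeR adjusted p = 1.26e-05). ATG9A, a scramblase carried on vesicles to the phagophore, had log2 fold changes of 0.31 (edgeR adjusted p = 0.00147) and 0.30 (edgeR adjusted p = 0.00156), below 1.5-fold. WDR45, WDR45B, ATG2A, ATG2B and VMP1 lay between -0.07 and 0.25 and none was called.

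Of the 10 conjugation genes, ATG5 fell in both lines and no other gene was called. ATG5, on chromosome 6 (GRCh38, 106045423 to 106325791, minus strand), is joined to ATG12 and forms with ATG16L1 the complex that attaches ATG8 proteins to lipid. It held 2106, 2108 and 2226 normalized counts in untreated Tu8902 and 1393, 1326 and 1384 with dox, a log2 fold change of -0.65 (standard error 0.05, edgeR adjusted p = 2.39e-06). In MiaPaCa2 it held 1504, 1682 and 1385 untreated and 957, 946 and 1133 with dox, a log2 fold change of -0.59 (standard error 0.09, edgeR adjusted p = 0.000439). The 3 dox libraries were below all untreated ones in both lines. The Tu8902 call was lost in 1 of 16 alternatives, limma on log2(TPM + 1), at -0.54. The MiaPaCa2 change lies at the limit of 1.5-fold, and 8 of its 16 alternatives lost the call while keeping the direction, at -0.47 to -0.58. These were the fits without untreated replicate 2 (-0.52), dox replicate 1 (-0.56) or dox replicate 2 (-0.55), DESeq2 plain (-0.58) and with shrunken fold changes (-0.56), edgeR with the size factors of DESeq2 (-0.58), effective gene lengths as offsets (-0.56) and limma on log2(TPM + 1) (-0.47). DESeq2 with shrunken fold changes is the kind of test the paper names.

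ATG3, the enzyme that passes ATG8 proteins to the lipid, had a log2 fold change of -0.37 (edgeR adjusted p = 9.36e-05) in Tu8902 and -0.06 (edgeR adjusted p = 0.57) in MiaPaCa2. ATG7, which activates both ATG8 and ATG12, had log2 fold changes of 0.33 (edgeR adjusted p = 0.0034) and 0.23 (edgeR adjusted p = 0.048). ATG16L1 lay on opposite sides of 0, at -0.22 (edgeR adjusted p = 0.00461) and 0.28 (edgeR adjusted p = 0.00613), a difference between the lines of -0.50 (edgeR adjusted p = 0.000336) that stayed below 1.5-fold. The proteases ATG4A, ATG4B, ATG4C and ATG4D, with ATG10 and ATG12, lay between -0.07 and 0.22.

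**Figure D2:**
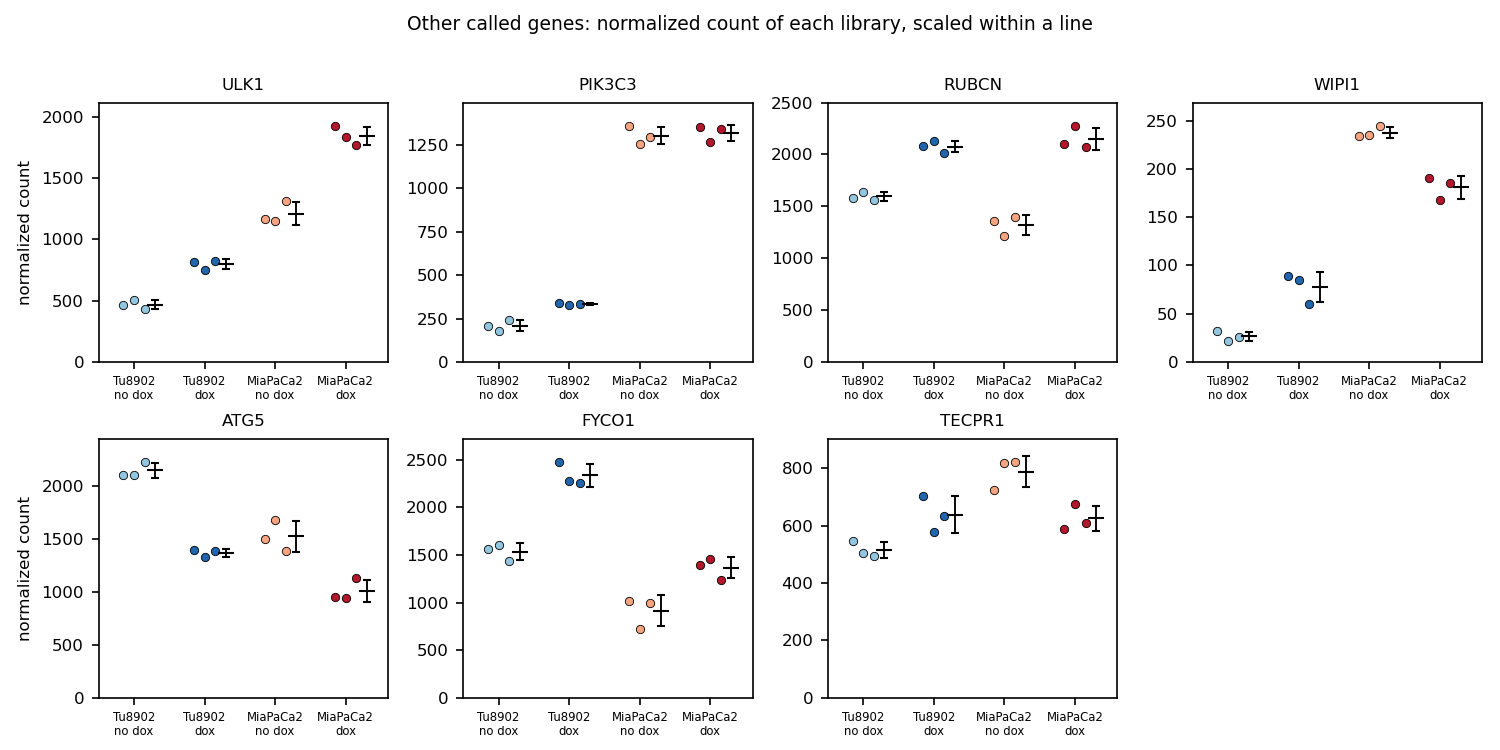
Normalized counts of 7 genes in each library, scaled within a line, as points for the libraries and a bar for mean ± SD (n = 3). ULK1 and FYCO1 are higher and ATG5 is lower with dox in both lines, while the PIK3C3 groups are apart in Tu8902 and overlap in MiaPaCa2. WIPI1 and TECPR1 are higher with dox in all Tu8902 libraries and lower in all MiaPaCa2 libraries.

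GABARAPL1 showed the largest rise of the 45 genes in both lines. It encodes a GABARAP-family ATG8 protein and lies on chromosome 12 (GRCh38, 10212458 to 10223128, plus strand). Its normalized counts were 372, 339 and 332 in untreated Tu8902 and 1144, 1149 and 1179.6 with dox, a log2 fold change of 1.74 (standard error 0.07, edgeR adjusted p = 2.48e-08). In MiaPaCa2 they were 357, 341 and 358 untreated and 832, 725 and 787 with dox, a log2 fold change of 1.15 (standard error 0.08, edgeR adjusted p = 1.36e-06). The untreated libraries of both lines held similar TPM values, 8.7, 8.09 and 7.1 in Tu8902 and 9.21, 7.6 and 9.35 in MiaPaCa2. The dox libraries held 27.9, 27.1 and 28.8 TPM in Tu8902 and 21.5, 18.3 and 19.4 TPM in MiaPaCa2. Both calls were kept in every alternative run. GABARAPL1-AS1 on the opposite strand shares 329 exon bases with it and had a mean count of 0.

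GABARAP, the most abundant of the 6 ATG8 homologs in all 12 libraries, had 149.9, 137 and 136 TPM in untreated Tu8902 and 195, 252 and 214 with dox. In MiaPaCa2 it had 162, 165 and 166 TPM untreated and 240.4, 215 and 201 with dox. The dox libraries were all higher, but the log2 fold changes of the counts, 0.51 (edgeR adjusted p = 0.000603) and 0.41 (edgeR adjusted p = 0.000358), were below 1.5-fold. In Tu8902 it became called without dox replicate 1, at 0.62, and on the TPM scale, at 0.64. GABARAPL2 had 134, 126 and 117 TPM in untreated Tu8902 and 156, 151 and 156 with dox, and in MiaPaCa2 84, 82.5 and 79 untreated and 74.9, 69.6 and 79.9 with dox. Its log2 fold changes had opposite signs, 0.22 (edgeR adjusted p = 0.00446) and -0.19 (edgeR adjusted p = 0.0999), with a difference between the lines of 0.41 (edgeR adjusted p = 0.00724), below 1.5-fold.

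Of the LC3 genes, MAP1LC3A rose in MiaPaCa2. It had 17.7, 15.9 and 17 TPM in untreated MiaPaCa2 and 32.6, 29 and 27.7 with dox, at a log2 fold change of 0.71 (standard error 0.10, edgeR adjusted p = 0.000162) of the counts. In Tu8902 it was a rare transcript, with 24.3, 20.1 and 18 normalized counts untreated and 31, 45.8 and 33.9 with dox, at a log2 fold change of 0.84 (standard error 0.27, edgeR adjusted p = 0.0259) that was not called within the line but was in 1 fit of all 12 libraries (0.85) and on the TPM scale (0.61). MAP1LC3B, whose protein is the usual marker of autophagosomes, had 27.1, 28.7 and 28.1 TPM in untreated Tu8902 and 30.7, 32.5 and 35 with dox, and in MiaPaCa2 63.4, 57.9 and 61.6 untreated and 66.5, 62.6 and 65.2 with dox. Its log2 fold changes were 0.15 (edgeR adjusted p = 0.0656) and 0.04 (edgeR adjusted p = 0.614), and its counts overlapped between the groups in both lines. MAP1LC3B2 stayed at 0.23 to 1.37 TPM in all libraries, and its division from MAP1LC3B is uncertain for the reason given with the sequences.

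The ATG8 homologs together summed to 289 to 321 TPM in untreated and 413 to 466 TPM in dox-treated Tu8902 libraries, and to 330.4 to 337 and 395 to 437 TPM in MiaPaCa2. GABARAPL1 took 2.45% to 2.71% of that sum in untreated Tu8902 and 5.8% to 6.77% with dox. In MiaPaCa2 it took 2.3% to 2.8% untreated and 4.63% to 4.92% with dox. GABARAPL1 thus stayed a small part of the ATG8 transcripts, while GABARAP took 45.3% to 55.1% in every library.

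**Figure D3:**
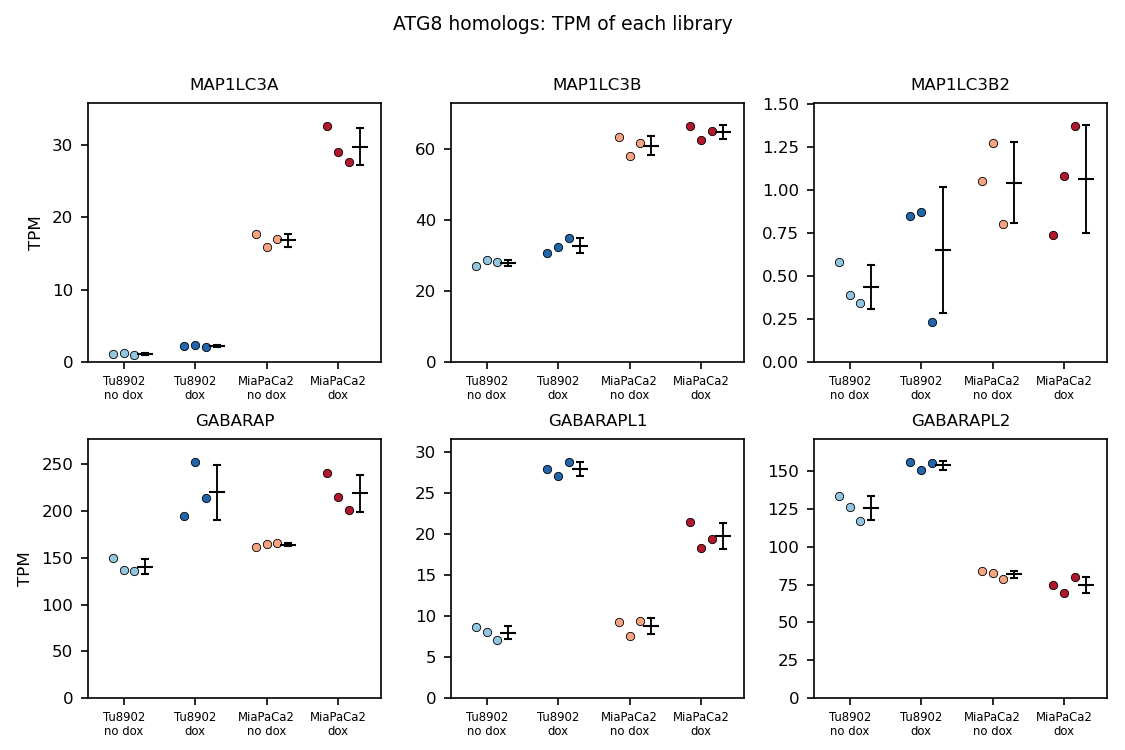
TPM of the 6 ATG8 homologs in each library, as points for the libraries and a bar for mean ± SD (n = 3), with a separate vertical scale for each gene. GABARAPL1 goes from 7.1 to 8.7 TPM to 27.1 to 28.8 TPM in Tu8902 and from 7.6 to 9.35 to 18.3 to 21.5 TPM in MiaPaCa2, and MAP1LC3A is scarce in Tu8902.

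Of the 5 selective receptors, SQSTM1 rose in MiaPaCa2, and none was called in Tu8902 by edgeR or DESeq2. In Tu8902, 3 were higher at an unadjusted edgeR p below 0.05. All 3 also had an adjusted p below 0.01, as had 19% of all tested genes in that direction, but stayed below 1.5-fold. SQSTM1 (p62), which carries ubiquitinated cargo and is itself degraded by autophagy, lies on chromosome 5 (GRCh38, 179806398 to 179838078, plus strand) and was the most abundant of the 45 transcripts in untreated Tu8902. In MiaPaCa2 it had 130.1, 125 and 136 TPM untreated and 229, 215 and 210.4 with dox, at a log2 fold change of 0.76 (standard error 0.06, edgeR adjusted p = 3.27e-06) of the counts that every alternative kept. In Tu8902 it had 231, 243 and 251 TPM untreated and 277, 313 and 302 with dox, at 0.26 (edgeR adjusted p = 0.00978), below 1.5-fold. The difference between the lines was -0.50 (edgeR adjusted p = 0.00107), also below 1.5-fold. MRNIP on the opposite strand shares 21% of the exon bases of SQSTM1, with a mean of 627 counts beside 12636 for SQSTM1. MGAT4B, also opposite, shares 105 exon bases and had a mean of 5964 counts.

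NBR1, which acts with SQSTM1 in gathering ubiquitinated cargo, had 23.8, 25.5 and 23.2 TPM in untreated Tu8902 and 38.1, 34.4 and 36 with dox, and in MiaPaCa2 37.6, 30.6 and 37.1 untreated and 43.5, 44.1 and 41.3 with dox. TAX1BP1, a receptor for protein aggregates and bacteria, had 135, 133 and 129 TPM untreated and 211, 174 and 198 with dox in Tu8902, and in MiaPaCa2 93.2, 66 and 83.2 untreated and 92.4, 99.2 and 94.5 with dox. In Tu8902 all dox libraries of both genes were above the untreated ones, with log2 fold changes of 0.50 (edgeR adjusted p = 1.12e-05) and 0.48 (edgeR adjusted p = 3.88e-05) that fell short of 1.5-fold. In MiaPaCa2 the log2 fold changes were 0.27 (edgeR adjusted p = 0.00305) and 0.21 (edgeR adjusted p = 0.0382), and the TAX1BP1 groups overlapped. OPTN, a receptor in mitophagy, had 21.4, 19.8 and 22.4 TPM in untreated Tu8902 and 23, 20 and 20.2 with dox, and in MiaPaCa2 20.9, 21.5 and 23.1 untreated and 18.9, 19.7 and 18.4 with dox, at log2 fold changes of -0.09 (edgeR adjusted p = 0.275) and -0.26 (edgeR adjusted p = 0.00673). CALCOCO2 (NDP52), a receptor for bacteria and mitochondria, had 48.2, 44 and 39.5 TPM in untreated Tu8902 and 45.7, 49.7 and 47.4 with dox. In MiaPaCa2 it had 61.5, 49.4 and 58.5 TPM untreated and 64.9, 67.7 and 60.5 with dox, and its log2 fold changes were 0.05 (edgeR adjusted p = 0.454) and 0.14 (edgeR adjusted p = 0.0955). The 5 receptors summed to 459.6 to 465 TPM in untreated and 591 to 604 TPM in dox-treated Tu8902 libraries, and to 292 to 343 and 425 to 449 TPM in MiaPaCa2. SQSTM1 took 46.5% to 53.9% of that sum in every Tu8902 library, and in MiaPaCa2 37.9% to 42.7% untreated and 48.3% to 51% with dox.

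**Figure D4:**
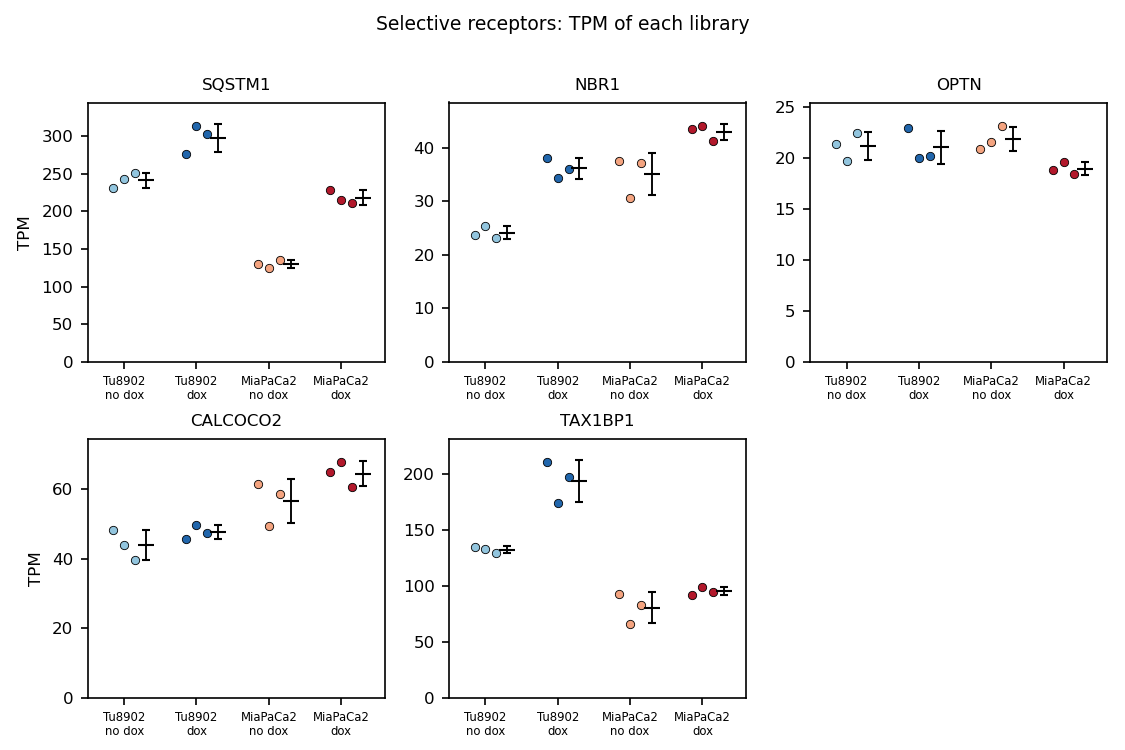
TPM of the 5 selective receptors in each library, as points for the libraries and a bar for mean ± SD (n = 3), with a separate vertical scale for each gene. SQSTM1 goes from 124.7 to 135.5 TPM to 210.4 to 228.9 TPM in MiaPaCa2, and NBR1 and TAX1BP1 are higher with dox in Tu8902, while OPTN stays between 18.4 and 23.2 TPM throughout.

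Among the 4 genes of transport and fusion, FYCO1 rose in Tu8902. FYCO1 links autophagosomes to kinesin for transport along microtubules, and lies on chromosome 3 (GRCh38, 45917903 to 45995824, minus strand). It held 1568, 1603 and 1439 normalized counts in untreated Tu8902 and 2476, 2280.4 and 2252 with dox, a log2 fold change of 0.60 (standard error 0.06, edgeR adjusted p = 1.42e-05). The call was lost without untreated replicate 3 (0.56) or dox replicate 1 (0.58). In MiaPaCa2 it held 1014, 728 and 1002 untreated and 1393, 1461 and 1243 with dox, at 0.58 (edgeR adjusted p = 0.00224), just under 1.5-fold, and it became called without untreated replicate 1 (0.65), untreated replicate 3 (0.63) or dox replicate 3 (0.63). In neither line did the groups overlap. STX17, the SNARE protein of the completed autophagosome, had log2 fold changes of 0.45 (edgeR adjusted p = 0.000309) and 0.37 (edgeR adjusted p = 0.018). EPG5, a tether for the lysosome, had 0.05 (edgeR adjusted p = 0.575) and 0.47 (edgeR adjusted p = 0.00197), with groups that overlapped in Tu8902 only. TECPR1, a tether that binds the ATG12 and ATG5 conjugate, held 546, 503 and 496 normalized counts in untreated Tu8902 and 704, 577 and 634 with dox, and in MiaPaCa2 725, 818 and 821 untreated and 589.7, 675 and 611 with dox. Its dox libraries were all higher in Tu8902 and all lower in MiaPaCa2, at 0.31 (edgeR adjusted p = 0.0135) and -0.33 (edgeR adjusted p = 0.00744), and neither change was called. By TPM its groups overlapped in both lines, with means of 6.51 ± 0.474 untreated and 7.4 ± 1.21 with dox in Tu8902 and of 8.14 ± 1.74 and 8.16 ± 3.1 in MiaPaCa2.

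The TPM of each group of genes were also summed per library. In Tu8902, phagophore growth summed to 258 to 266 TPM untreated and 298 to 332 TPM with dox, and the lipid kinase group to 124.6 to 137 TPM untreated and 149 to 153 TPM with dox. Conjugation was lower with dox, at 369.7 to 381 TPM untreated and 356 to 362 TPM with dox. Initiation overlapped, at 204 to 217 TPM untreated and 212 to 223 TPM with dox. In MiaPaCa2, phagophore growth summed to 329.9 to 385 TPM untreated and 421 to 438 TPM with dox and the lipid kinase group to 135 to 154 TPM untreated and 169 to 181 TPM with dox, while initiation and conjugation overlapped between the groups. All 45 genes summed to 1755 to 1800.0 TPM in untreated and 2120.4 to 2134 TPM in dox-treated Tu8902 libraries, and to 1477 to 1657 and 1869.9 to 1969 TPM in MiaPaCa2. The lowest of the MiaPaCa2 sums was that of untreated replicate 2, which was the lowest MiaPaCa2 library in all 7 groups of genes as well.

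The effect of dox was then compared between the lines by an interaction contrast of all 12 libraries. It was called for 4 of the 45 genes, all more positive in Tu8902, where 10.4% of 16544 tested genes were called, 6.56% in that direction and 3.86% in the other. They were WIPI1, with a difference in log2 fold change of 1.97 (standard error 0.23, edgeR adjusted p = 7.87e-06), PIK3C3 with 0.66 (standard error 0.12, edgeR adjusted p = 0.000675), TECPR1 with 0.64 (standard error 0.12, edgeR adjusted p = 0.000769) and GABARAPL1 with 0.59 (standard error 0.11, edgeR adjusted p = 0.000544). GABARAPL1 rose in both lines and the difference is one of size, with folds of 3.33 in Tu8902 and 2.22 in MiaPaCa2. The WIPI1 difference was called in every alternative, but was 1.49 with effective gene lengths as offsets and 0.94 with limma on log2(TPM + 1). Without untreated Tu8902 replicate 2, only WIPI1 and TECPR1 were called, with PIK3C3 at 0.57 and GABARAPL1 at 0.58. The GABARAPL1 difference was also lost without untreated Tu8902 replicate 3 (0.56), dox Tu8902 replicate 3 (0.58), untreated MiaPaCa2 replicate 1 (0.57) or dox MiaPaCa2 replicate 2 (0.55). With effective gene lengths as offsets the TECPR1 difference was 0.18 and the PIK3C3 difference 0.53, neither of them called. For ULK1 and ATG5 the differences were 0.16 (edgeR adjusted p = 0.305) and -0.06 (edgeR adjusted p = 0.749), which does not show that the lines responded alike.

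The untreated lines were also compared. Of the 45 genes, 10 were higher in untreated Tu8902 and 16 lower than in untreated MiaPaCa2, beside 29.4% and 28.2% of the 16544 tested genes. The share called in either direction, 57.8%, was near the 57.5% of all tested genes. The lower ones included MAP1LC3A, with a log2 difference (Tu8902 over MiaPaCa2) of -3.73 (standard error 0.17, edgeR adjusted p = 6.44e-13), WIPI1 with -3.29 (edgeR adjusted p = 6.05e-12) and PIK3C3 with -2.77 (edgeR adjusted p = 6.84e-15). In TPM, MAP1LC3A stood at 1.12 ± 0.156 in Tu8902 and 16.9 ± 0.895 in MiaPaCa2, WIPI1 at 0.99 ± 0.269 and 8.28 ± 0.254, and PIK3C3 at 4.39 ± 0.56 and 26.4 ± 3.68 (mean ± SD, n = 3). WIPI1 and PIK3C3, both among the 4 genes with a called difference of the dox effect, were below MiaPaCa2 with dox too, at 2.26 ± 0.321 and 7.29 ± 0.657 TPM in Tu8902. ULK1 and ULK2 were also lower in Tu8902, at -1.49 (edgeR adjusted p = 4.95e-12) and -1.37 (edgeR adjusted p = 1.71e-12), as was MAP1LC3B at -1.18 (edgeR adjusted p = 1.88e-11). Phagophore growth had 5 of its 8 genes lower and 1 higher, ATG2A. The higher ones included ATG7 at 1.36 (edgeR adjusted p = 8.73e-11), ATG101 at 1.29 (edgeR adjusted p = 1.31e-10), SQSTM1 at 0.89 (edgeR adjusted p = 2.22e-09) and TAX1BP1 at 0.81 (edgeR adjusted p = 4.29e-09).

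By TPM the order of the untreated transcripts was SQSTM1 (242 ± 9.93), GABARAP (141 ± 7.98), TAX1BP1 (133 ± 2.94), GABARAPL2 (126 ± 8.17) and ATG101 (124 ± 4.82) in Tu8902, of which all but SQSTM1 overlapped a neighbour in mean ± SD, so that their order is not resolved. In MiaPaCa2 it was GABARAP (164 ± 1.97), SQSTM1 (130.1 ± 5.41), VMP1 (101 ± 9.86), GABARAPL2 (81.9 ± 2.53) and TAX1BP1 (80.8 ± 13.7), of which TAX1BP1 overlapped VMP1 and GABARAPL2 in mean ± SD, and also WDR45B (71.2 ± 3.79), the next in order, so that its place is not resolved.

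**Figure D5:**
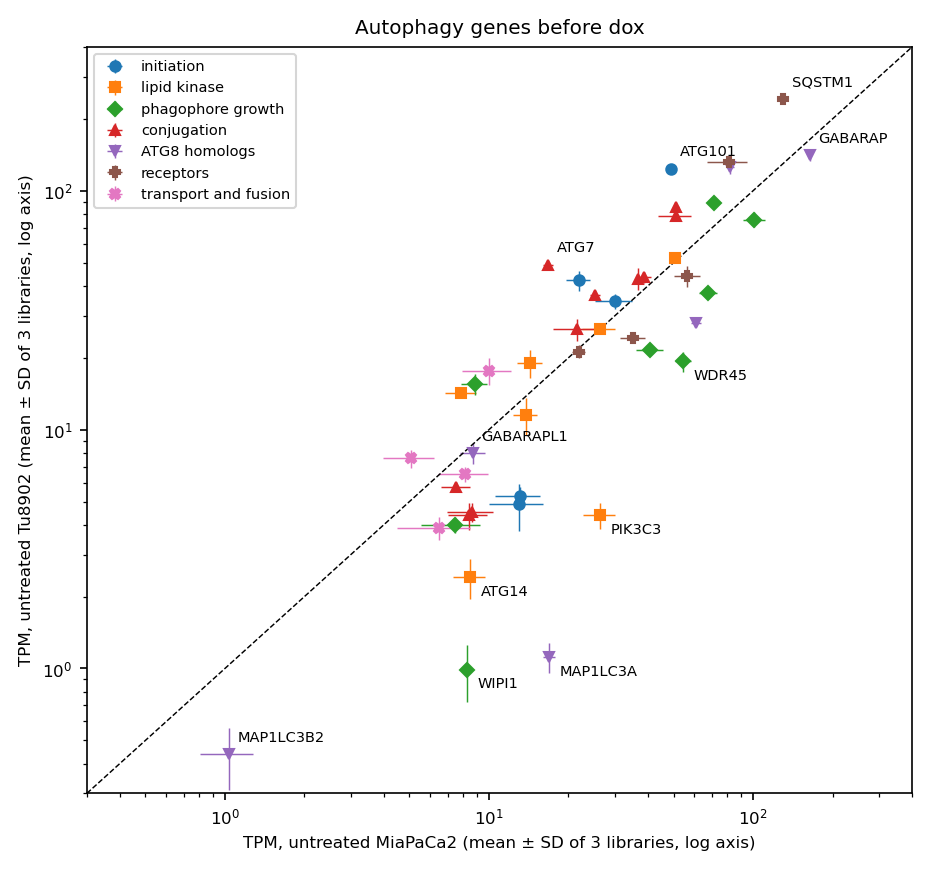
Mean TPM ± SD (n = 3) of the 45 genes in untreated MiaPaCa2 (horizontal, log axis) and untreated Tu8902 (vertical, log axis), with a dashed line of equality. MAP1LC3A, WIPI1 and PIK3C3 lie farthest below the line, at 1.12, 0.99 and 4.39 TPM in Tu8902 against 16.9, 8.28 and 26.4 TPM in MiaPaCa2, and ATG7 and ATG101 lie above it.

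Other genes of autophagy were read from lists of 23 further receptors, 14 genes of tethering and fusion and 26 regulators and paralogs. Of the further receptors, 2 rose and 1 fell among 22 tested in Tu8902, and 1 rose and 4 fell among 21 in MiaPaCa2. These are 13.6% and 23.8% of those tested, beside 16.3% and 12% of all tested genes. CALCOCO1, a receptor for endoplasmic reticulum and Golgi, held 173, 184 and 168 normalized counts in untreated Tu8902 and 644, 556 and 629 with dox, a log2 fold change of 1.80 (standard error 0.09, edgeR adjusted p = 1.66e-07). In MiaPaCa2 its log2 fold change was 0.49 (edgeR adjusted p = 0.000575), and the difference between the lines was 1.31 (edgeR adjusted p = 6.23e-07). BNIP3L, a mitophagy receptor, held 2078, 1944 and 1981 normalized counts in untreated MiaPaCa2 and 3318, 3521 and 3537 with dox, at 0.79 (edgeR adjusted p = 2.41e-06), and stood at 0.01 (edgeR adjusted p = 0.843) in Tu8902. STBD1, a receptor for glycogen, fell in both lines, at -1.42 (edgeR adjusted p = 4.98e-05) and -1.84 (edgeR adjusted p = 5.2e-05). RETREG1 and ATL3, receptors for endoplasmic reticulum, fell in MiaPaCa2 at -2.44 (edgeR adjusted p = 6.88e-06) and -0.65 (edgeR adjusted p = 4.2e-05), as did NIPSNAP2, a mitochondrial protein that recruits receptors, at -0.67 (edgeR adjusted p = 1.81e-05). None of these was called in Tu8902, but RETREG1 and ATL3 were lower there in all dox libraries. RETREG1 held 65.7, 76.4 and 67.6 normalized counts in untreated Tu8902 and 32, 52.9 and 32.8 with dox. ATL3 held 4141, 4118 and 4227 untreated and 2681, 2950 and 2798 with dox, while the NIPSNAP2 groups overlapped.

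Of the genes of tethering and fusion, RILP, which couples late endosomes to dynein, rose in Tu8902 at 0.74 (edgeR adjusted p = 0.000111), the only call among 13 tested there (7.69%, beside 16.3% of all tested genes). At an edgeR adjusted p below 0.01 with no limit on fold change, 6 of the 13 were higher and 0 lower in Tu8902. The shares of all tested genes were 19% and 19.1%. In MiaPaCa2 edgeR called none of 13, of which 3 were higher and 2 lower at an unadjusted p below 0.05. With no limit on fold change, 2 were higher and 2 lower at an adjusted p below 0.01, beside 12.6% and 14.7% of all tested genes. Of the regulators and paralogs, 4 rose and 1 fell among 24 tested in Tu8902, and 1 rose and 1 fell among 23 in MiaPaCa2. These are 20.8% and 8.7% of those tested, beside 16.3% and 12% of all tested genes. TFEB, a transcription factor for lysosomal and autophagy genes, held 42.6, 63.1 and 62 normalized counts in untreated Tu8902 and 167, 179 and 170.3 with dox, a log2 fold change of 1.61 (standard error 0.16, edgeR adjusted p = 1.51e-05). In MiaPaCa2 it held 206, 227 and 237 untreated and 183, 135 and 144 with dox, at -0.54 (edgeR adjusted p = 0.00789), below 1.5-fold and lower with dox. The difference between the lines was 2.15 (edgeR adjusted p = 1.1e-06). TP53INP1 and TP53INP2, which bind ATG8 proteins, rose in Tu8902 at 2.97 (edgeR adjusted p = 3.68e-06) and 0.68 (edgeR adjusted p = 0.000299). In MiaPaCa2 they were not called, at -0.61 (edgeR adjusted p = 0.0792) and -0.02 (edgeR adjusted p = 0.91). TP53INP1 was a rare transcript in Tu8902, with 17, 10.5 and 11.3 normalized counts untreated and 116, 93.9 and 93.1 with dox. Its mean there was 0.0933 TPM untreated and 0.767 TPM with dox. SESN3, a sestrin that restrains mTORC1, rose in Tu8902 at 0.71 (edgeR adjusted p = 2.56e-05). In MiaPaCa2 it held at most 3 counts in a library, too few to be tested. The sestrin SESN2 rose in MiaPaCa2 at 0.63 (edgeR adjusted p = 4.41e-05). In Tu8902 SESN2 was not called, but its dox libraries were all higher. It held 494, 429 and 502 normalized counts there untreated and 539, 638 and 560 with dox. FOXO3, a transcription factor for starvation genes, fell in both lines, at -0.87 (edgeR adjusted p = 4.76e-07) and -0.77 (edgeR adjusted p = 0.000538).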

How the data were processed

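Poly(A) RNA of 12 libraries was sequenced in paired-end mode after a strand-specific library preparation. The authors trimmed reads with Trimmomatic 0.39, aligned them with STAR 2.5.2a as called by RSEM 1.3.1 to GRCh38, and deposited the expected counts of each gene, unnormalized and unfiltered. TPM values, as deposited by the authors, are RSEM's length-corrected levels per gene and isoform. Of all expected counts 5.34% (8.89% for the 45 genes) were not whole, and counts were rounded.

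The quasi-likelihood test (glmQLFit, glmQLFTest) of edgeR 4.0.16 in R 4.3.3 was run after TMM scaling in each line. A gene entered with 10 counts or more in 3 or more libraries. Calls needed an adjusted p (Benjamini-Hochberg) under 0.01 and a change of 1.5-fold or more, the thresholds of the paper. The interaction and the untreated contrast used 1 fit of all 12 libraries. Standard errors are the absolute log2 fold change over the square root of F. Values per library are given for genes called in a line or between lines, for ATG8 homologs and for receptors, and other genes mostly by range.

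Alternatives were DESeq2 1.42.0, plain and with fold changes shrunken by a normal prior, its size factors, other filters and thresholds, effective lengths, limma 3.58.1 on log2(TPM + 1) for genes of at least 1 TPM, a replicate block, 1 fit of all libraries, and each library left out. Scripts were tested on simulated data. The gene names, the lists and the tests were chosen with earlier results of these data known. Deviations of same-numbered libraries from their group means correlated at -0.11 to 0.15 over 6 pairs, so numbers were not taken as pairs. The chi-square per degree of freedom between the counts of replicates was 2.25 to 27.3, so no replicates agreed within sampling noise. Untreated MiaPaCa2 replicate 2 gave 27.3 against replicate 1 and 25.5 against replicate 3, which gave 6.4 against each other. Dox-treated Tu8902 replicates 1 and 2 gave 20.6.

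Positions, exon overlaps and coding sequences came from GENCODE release 44 (GRCh38), and promoters from RefSeq (GRCh38.p14). The paper's methods give default parameters for alignment and counting and do not state the strand setting. This was read here as RSEM without its strand option. Exons of the opposite strand overlap 23 of the 45 genes, and in 13 cases the other gene has over 10% of the gene's mean count. The authors' FPKM values were not used here, and the limit for a count of 0 covers counting error only. The values of 1 gene of the further receptor list are not reported here, and the list's counts include it.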

Additional observations from a re-analysis of the deposited data

Results flagged for a closer look

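The interaction contrast of edgeR called 4 of the 45 genes as differing between the lines in their change with dox. This share, 8.89%, lay below the 10.4% of all 16544 tested genes. WIPI1 stood at 1.57 in Tu8902 and -0.39 in MiaPaCa2, a difference of 1.97 on the log2 scale (edgeR adjusted p = 7.87e-06), with all 3 dox libraries higher in Tu8902 and all 3 lower in MiaPaCa2. The difference was 0.94 with limma on log2(TPM + 1). Its exons overlap those of ARSG on the opposite strand. TECPR1 also lay on opposite sides of 0, 0.31 and -0.33, a difference of 0.64 (edgeR adjusted p = 0.000769), which was 0.18 with effective gene lengths as offsets, and its groups overlapped in both lines by TPM. PIK3C3 differed by 0.66 (edgeR adjusted p = 0.000675), from 0.68 in Tu8902 and 0.02 in MiaPaCa2. The call of this difference was lost in 3 of 20 alternatives, and its lowest value was 0.43. GABARAPL1 rose in both lines and differed by 0.59 (edgeR adjusted p = 0.000544), near the limit on fold change. The call of its difference was lost in 5 of 20 alternatives, and its lowest value was 0.55. No group of more than 3 libraries exists, so single libraries were not tested for standing apart.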

How the results depend on the processing

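Under the alternatives, 5 to 7 genes were called in Tu8902 and 4 to 7 in MiaPaCa2 (6 in each), and 24 to 27 between the untreated lines (26), except that with no fold limit 21, 19 and 37 were called. Leaving out each library in turn gave 5 to 7, 4 to 7 and 25 to 27. The dox effect differed between lines for 4 genes, for 7 with no fold limit, for 2 with effective lengths as offsets, for 2 with limma on log2(TPM + 1) and for 2 to 4 with a library left out. The median log2 fold change in Tu8902 (0.152) was 0.214 with limma on TPM and 0.142 to 0.191 with a library left out. In MiaPaCa2 (0.0906) it was 0.129 with effective lengths, 0.190 with limma on TPM and 0.0536 to 0.130 with a library left out. The log2 fold change of GOT1 was -4.72 to -4.09 in Tu8902 and -4.94 to -3.92 in MiaPaCa2.

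Of 636 values of single genes, 595 kept their direction and side of the threshold, 28 lost a call, 8 gained one and 5 changed sign, all in MiaPaCa2 and none of them called. MAP1LC3B ranged from -0.0015 to 0.0677 and PIK3C3 from -0.0148 to 0.0467 with a library left out. MAP1LC3B2 ranged from -0.275 to 0.119, and was 0.0114 with limma on TPM. With a replicate block, 6 genes were called in Tu8902, 7 in MiaPaCa2 (FYCO1 added), 4 in the difference between lines and 25 between the untreated lines. The cause of these changes was not tested. Low counts limit WIPI1, MAP1LC3A and MAP1LC3B2 in Tu8902, the last of which was not tested there.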

Other observations

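RSEM's isoform estimates divided the TPM of called genes among transcripts, some of them annotated as non-coding. ULK1-204, annotated as a retained intron, took 8.24% to 23.1% of its gene's TPM in the 12 libraries. PIK3C3-208, also a retained intron, took 7.36% to 34.5% in the Tu8902 libraries. MAP1LC3A-204, a processed transcript, took 23% to 46.8% in those of MiaPaCa2. For GABARAPL1, the transcript GABARAPL1-201 took 88.4% to 96.3% of the gene's TPM in the 12 libraries. For SQSTM1, SQSTM1-202 took 64.6% to 76%, and for FYCO1, FYCO1-201 took 66.1% to 88.5%. ATG5 was spread more widely. ATG5-211, annotated as a target of nonsense-mediated decay, took 33.3%, 43.5% and 27.8% of the gene's TPM in untreated Tu8902 and 42.1%, 50.2% and 41.9% with dox. In MiaPaCa2 it took 20.6%, 30.5% and 19.4% untreated and 41.7%, 29.7% and 20.2% with dox. The groups overlapped in both lines. The protein-coding ATG5-204 took 3.72% to 21.6% in the Tu8902 libraries and 26.4% to 50.9% in those of MiaPaCa2. Isoform shares are estimates from reads that several transcripts have in common, and no test was run on them.

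RefSeq promoters, from 250 bases before to 50 bases after the gene start, were found for 38 of the 45 genes and searched on both strands. CACGTG, the core letters of the element bound by TFEB and related factors, was present in 2 of the 38 (5.26%), those of ATG3 and ATG14, beside 7.43% of 27305 promoters and 10.1% of those of genes with counts in these libraries. The longer TCACGTGA, which contains it, was present in that of ATG3 (2.63%, beside 1.04% and 1.87%). TGTTTAC, letters bound by forkhead factors, was present in that of CALCOCO2 (2.63%, beside 3.41% and 2.19%). None of these 3 genes was called in either line, and no match says only that the letters are not in this window.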
